A study of Mus musculus with 16 samples.

Results

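The genes of the interleukin-10 (IL-10), IL-12 and IL-23 families were examined in RAW264.7 cells, an Abelson virus-transformed mouse cell line with many properties of macrophages. Every experimental probe whose gene name in the array files was Il10, Il10ra, Il10rb, Il12a, Il12b, Il23a, Il27 or Ebi3 was taken, which gave 8 probes, 1 for each of the 8 genes, of 55681 probes in all. Cells received the vehicle DMSO or 20 µM cordycepin (3'-deoxyadenosine, an adenosine analogue known to interfere with polyadenylation) for 60 min. Bacterial lipopolysaccharide (LPS, 1 µg/ml), or a vehicle control in the study's methods, was then added for a further 60 min. Every culture had thus been with DMSO or cordycepin for 120 min in all. The 4 conditions are called DMSO, cordycepin, LPS+DMSO and LPS+cordycepin, each with 4 biological replicates collected on different days, and all had been kept in low serum since the day before. One transformed line stands for macrophages here, and only a single time after LPS was measured.

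IL-10 is the main anti-inflammatory cytokine made by macrophages. It binds a receptor made of Il10ra, which gives ligand specificity, and Il10rb, which is shared with other cytokines of the IL-10 family, and it signals through Janus kinases and STAT3. The IL-12 family consists of paired subunits: Il12a (p35) with Il12b (p40) forms IL-12, Il23a (p19) with Il12b forms IL-23, Il27 (p28) with Ebi3 forms IL-27, and Il12a with Ebi3 forms IL-35. IL-12 and IL-23 steer T cells towards inflammatory programmes, while IL-27 has both activating and restraining actions.

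Signal is given as log2 of the processed intensity, set relative to the 75th percentile of each array. A probe is called well above background when the scanner software marked its spot so. For a probe with several spots, outliers left out, the unmarked spots must not outnumber the marked ones. A gene was tested with limma over all 16 arrays where 1 or more conditions had its probe so marked in all 4 replicates. It was called when the Benjamini-Hochberg adjusted p over the 15877 genes tested was under 0.05 and the difference was at least 2-fold.

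Of the 8 genes, 4 (Il10ra, Il10rb, Il27 and Ebi3) were well above background on all 16 arrays and were tested. Il10, Il12a and Il12b were well above background on no array. Il23a reached that mark on none of the 4 DMSO or 4 cordycepin arrays, on 3 of 4 with LPS+DMSO and on 2 of 4 with LPS+cordycepin, so it did not pass the filter. The transcripts seen were therefore both chains of the IL-10 receptor, both subunits of IL-27 and, after LPS, the p19 subunit of IL-23. The probes for IL-10 itself and for both IL-12 subunits met the background rule on no array.

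**Figure D1:**
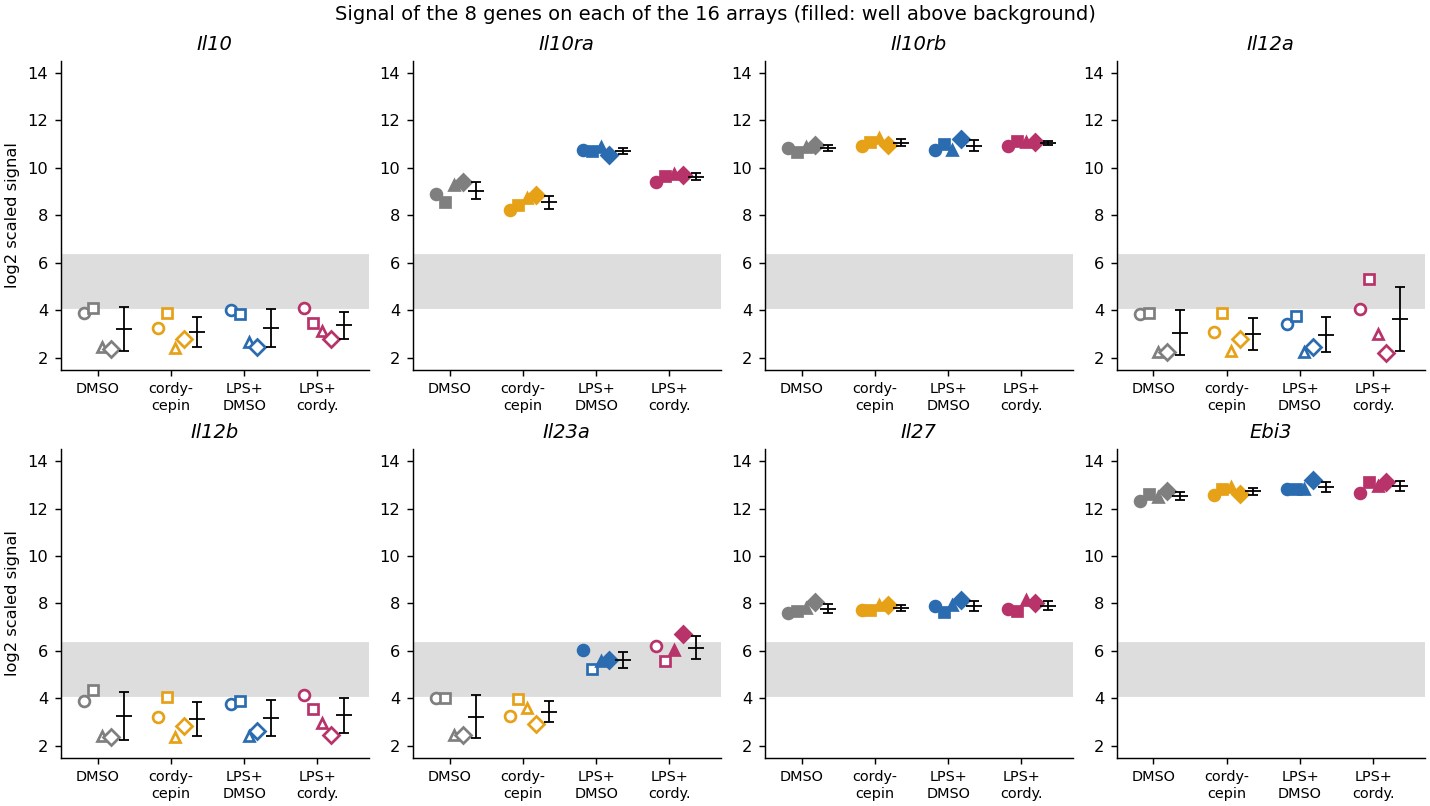
Log2 scaled signal of the 8 genes on each of the 16 arrays, by condition, with circles, squares, triangles and diamonds for replicates 1 to 4 and filled symbols where the probe was well above background. Black bars show the mean and SD of 4 arrays, and the grey band spans the lowest signal of any probe well above background, which ran from 4.11 to 6.32 over the arrays. Il10, Il12a and Il12b have open symbols throughout, and Il10ra moves with both LPS and cordycepin.

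The probes are 60 bases long and their positions are those of the array files, on mm9. They lie at chr1:132920943-132921002 (Il10, plus strand), chr9:45062237-45062296 (Il10ra, minus strand), chr16:91425744-91425803 (Il10rb, plus strand), chr3:68502346-68502405 (Il12a, plus strand), chr11:44227121-44227180 (Il12b, plus strand), chr10:127733766-127733825 (Il23a, minus strand), chr7:133736137-133736196 (Il27, minus strand) and chr17:56096309-56096368 (Ebi3, plus strand). The Il27 probe starts at base 196 of its RefSeq transcript and the Il10ra probe at base 3118 of its own, so the reported level is that of the part of the messenger RNA under the probe. In the 30-base stretches below, ATTTA is in capitals, the core of the AU-rich elements known to shorten the life of cytokine messenger RNAs. The stretches are shown for the pair of genes whose signal moved with LPS and for those dim genes whose probe holds ATTTA.

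Il10ra probe, bases 1 to 30: gtcatgaccctaatctggtacgagagctcc
Il23a probe, bases 1 to 30: tgataagactaatctatcagcccagacatc
Il10 probe, bases 7 to 36: cctcgtttgtacctctctccgaaatATTTA
Il12a probe, bases 11 to 40: gcctATTTAtATTTATTTAttttctATTTA

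ATTTA occurred 4 times in the Il12a probe, once each in the Il10 and Il10rb probes and in none of the other 5, while 7.71% of all probes held it at least once. The Il12a probe was also poor in G and C, with 16.7% of its bases, and only 0.0485% of all probes had a lower share. The G and C share was 41.7% for Il10, 38.3% for both Il12b and Il23a, 35.0% for Il10rb, 43.3% for Ebi3, 53.3% for Il10ra and 55.0% for Il27, against a median of 43.3% over all probes. The Il10rb probe, at 35.0%, was well above background on all arrays, and 2.52% of all probes had a lower share than it. Whether base composition had a part in the dim Il12a signal was not tested.

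All 8 macrophage markers, among them Cd68, Csf1r and Adgre1, were well above background on all 16 arrays, and with LPS the LPS co-receptor Cd14 was called higher (1.12) and the Fc receptor Fcgr1 lower (-1.14). Of 20 markers of T cells, B cells, NK cells, dendritic cells, neutrophils, fibroblasts and epithelium, 10 were well above background on no array and 3 (Cd3e, Cd4 and Siglech) on all of them. The B cell receptor component Cd79a and the neutrophil granule enzyme Mpo were higher in LPS+cordycepin than in LPS+DMSO, by 2.63 and 3.97 on the log2 scale. Both were also higher in LPS+cordycepin than in cordycepin, by 2.69 and 2.73, and Mpo was higher with cordycepin than with DMSO, by 2.02, all called. Neither gene was well above background on all 16 arrays, so these sizes may rest in part on values not well above it. The mean log2 level of the 3 neutrophil markers was 3.36 to 4.63 on the DMSO arrays, 4.51 to 5.00 with cordycepin, 3.57 to 4.50 with LPS+DMSO and 5.40 to 5.96 with LPS+cordycepin. Ms4a1, a B cell marker, and Ly6g and Cxcr2, neutrophil markers, were well above background on no array, and the part of Cd79a and Mpo in the results below was not tested. Arrays lay on 2 slides, with replicates 1 and 2 of every condition on the first and 3 and 4 on the second. On the first slide 37.1% to 43.9% of the spots of an array were well above background, and on the second 45.8% to 51.2%.

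Il10ra, the ligand-binding chain of the IL-10 receptor, was the member that responded most clearly. Its log2 signal in replicates 1 to 4 was 8.91, 8.58, 9.27 and 9.39 with DMSO and 8.22, 8.43, 8.71 and 8.84 with cordycepin. It was 10.76, 10.72, 10.86 and 10.55 with LPS+DMSO and 9.41, 9.65, 9.75 and 9.70 with LPS+cordycepin. The LPS+DMSO arrays were all above every other array, the LPS+cordycepin arrays were all above the unstimulated ones (though the lowest of them, 9.41, was close to the highest DMSO array, 9.39), and the DMSO and cordycepin arrays overlapped.

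Between DMSO and LPS+DMSO, Il10ra rose by 1.69 on the log2 scale (3.22-fold, SE 0.17, limma adjusted p = 4.16e-06), and it was higher in 4 of 4 replicates. It was the only one of the 4 tested members called in this comparison, in which 2.09% of the 15877 genes were called higher. Cordycepin lowered the signal in LPS-treated cells. Il10ra fell by 1.09 on the log2 scale between LPS+DMSO and LPS+cordycepin (2.14-fold, SE 0.17, adjusted p = 0.000179), again in 4 of 4 replicates. Here too 1 of the 4 tested members was called, against 1.52% of all genes called lower. The log2 differences by replicate were -1.35, -1.07, -1.11 and -0.85, so the fall exceeded 2-fold in replicates 1 to 3 and not in replicate 4. The fall was just under 2-fold, and so not called, with normexp background correction (-0.98) and on the second slide alone (-0.98).

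A rise with LPS was also called when cordycepin was present. LPS+cordycepin exceeded cordycepin by 1.08 on the log2 scale (2.11-fold, adjusted p = 0.000526), higher in 4 of 4 replicates, while 1.69% of all genes were called higher. This call was lost with scaling to the spiked-in control probes (0.77, adjusted p = 0.562), and the difference was under 2-fold with normexp background correction (0.94), on the second slide alone (0.95) and without cordycepin replicate 1 (0.97). In unstimulated cells the same drug gave a smaller difference. Il10ra was lower with cordycepin than with DMSO in 4 of 4 replicates, by -0.49 on the log2 scale (95% CI -0.85 to -0.12, adjusted p = 0.0673), which was not called. With the replicate number as a block the adjusted p was 0.0303, still at under 2-fold. Over all 39 alternatives the adjusted p ran from 0.00941 to 0.99997 and the difference from -0.64 to -0.37. None of the 4 members was called in that comparison by limma, 1 had an unadjusted p under 0.05, and the univariate test of the study's methods called 0, while 5.55% of all genes were called in either direction.

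Whether cordycepin changed the size of the LPS response was asked by the interaction, the LPS response with cordycepin less that with DMSO. For Il10ra it was -0.61 on the log2 scale (SE 0.24, 95% CI -1.12 to -0.10, limma adjusted p = 0.482) and below 0 in 4 of 4 replicates. No member passed, 1 had an unadjusted p under 0.05, and 0.365% of all genes were called. A smaller response to LPS under cordycepin was therefore not established for Il10ra, although its level after LPS was lower. On the first slide the LPS response was 2.00 and the cordycepin difference in LPS -1.21, and on the second they were 1.38 and -0.98. The signs were alike on both slides. The interaction was -0.79 on the first and -0.43 on the second.

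**Figure D2:**
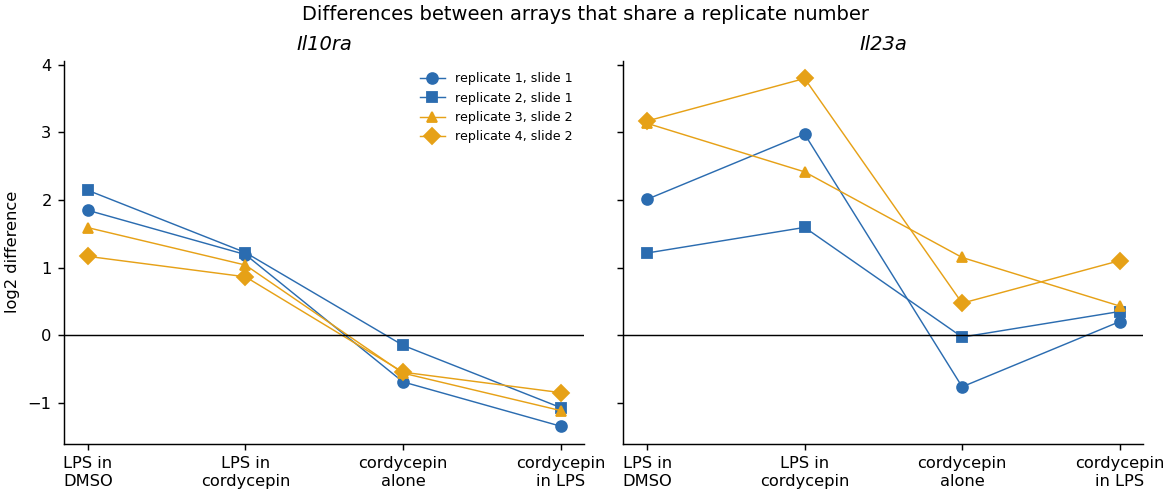
Log2 differences between arrays of the same replicate number for Il10ra and Il23a, with a line for each replicate (blue, slide 1, and orange, slide 2). For Il10ra all 4 LPS differences lie above 0 and all 4 cordycepin differences below 0, whereas for Il23a the cordycepin difference in LPS-treated cells lies above 0 in all 4 on this processed signal, in part from values not well above background.

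Il10rb, the receptor chain that IL-10 shares with IL-22 and other relatives, stayed within a narrow range. Its log2 signal was 10.84 ± 0.12 (SD, n = 4) with DMSO, 11.05 ± 0.15 with cordycepin, 10.94 ± 0.22 with LPS+DMSO and 11.06 ± 0.08 with LPS+cordycepin, and the 4 conditions overlapped. It was called in none of the 5 comparisons. The difference of LPS+DMSO from DMSO was 0.10 on the log2 scale (95% CI -0.14 to 0.33), that of LPS+cordycepin from LPS+DMSO 0.12 (95% CI -0.12 to 0.35) and that of cordycepin from DMSO 0.21 (95% CI -0.03 to 0.45). These intervals all lie inside 2-fold, so the 2 receptor chains differed in that Il10ra was called and Il10rb was not, a difference between genes that was not itself tested.

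The subunits of IL-27 were both measured. Ebi3, the soluble receptor-like subunit that IL-27 and IL-35 share, had a log2 signal of 12.34, 12.60, 12.47 and 12.74 with DMSO, 12.57, 12.82, 12.89 and 12.62 with cordycepin, 12.81, 12.81, 12.81 and 13.22 with LPS+DMSO, and 12.66, 13.11, 12.97 and 13.10 with LPS+cordycepin. The LPS+DMSO arrays were all above the DMSO arrays, but by little. The difference was 0.38 on the log2 scale (95% CI 0.10 to 0.66, limma adjusted p = 0.0699), in the same direction in 4 of 4 replicates and not called. Its adjusted p was 0.0282 with the replicate block, 0.0474 with the slide block, 0.0444 with median scaling and 0.0211 with the percentile over all probes, always under 2-fold. With other settings it was higher, at 0.9999 with spiked-in scaling (log2 difference 0.28) and 0.158 with the univariate test of the study's methods. On the first and second slide alone it was 0.456 and 0.241. Without LPS+DMSO replicate 4, the highest array, the difference was 0.27 (adjusted p = 0.204). Between LPS+DMSO and LPS+cordycepin the difference was 0.05 (95% CI -0.23 to 0.33), so neither a rise nor a fall of as much as 2-fold lay inside the interval.

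Il27, the cytokine-like p28 subunit, had a log2 signal of 7.79 ± 0.20 (SD, n = 4) with DMSO, 7.82 ± 0.12 with cordycepin, 7.91 ± 0.21 with LPS+DMSO and 7.91 ± 0.21 with LPS+cordycepin. The conditions overlapped throughout, and Il27 was called in none of the 5 comparisons. Its difference with LPS was 0.12 (95% CI -0.16 to 0.40) and with cordycepin in LPS 0.00 (95% CI -0.28 to 0.29). The 2 IL-27 subunits were thus present before stimulation and neither was called after 60 min of LPS.

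**Figure D3:**
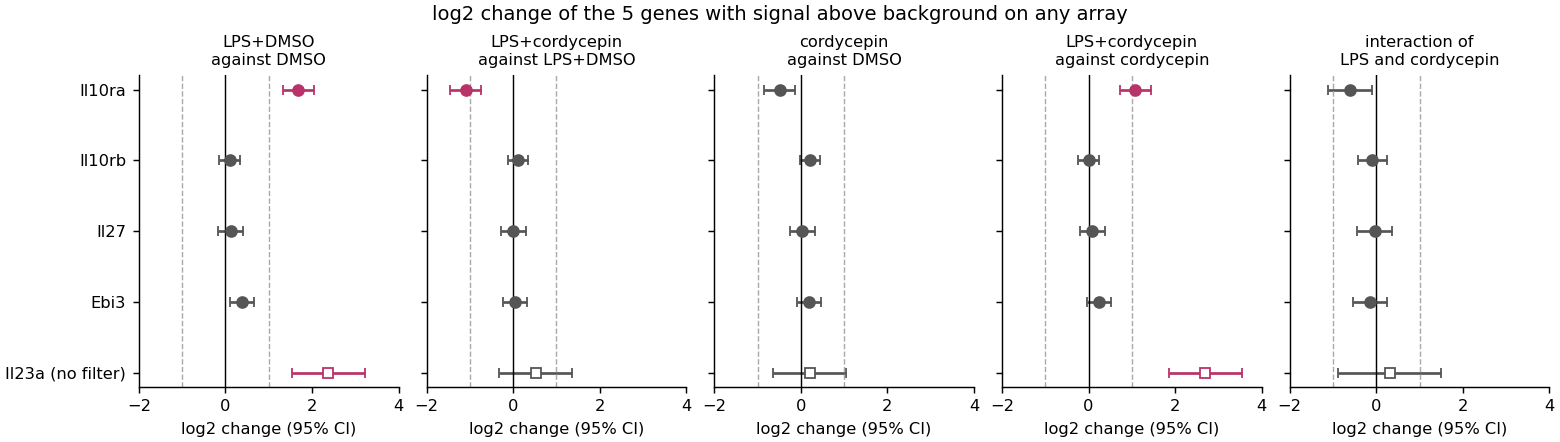
Log2 change with its 95% confidence interval in the 5 comparisons for the 4 genes tested (circles) and for Il23a from the fit without the filter on dim probes (open squares), with red for called changes and dashed lines at 2-fold. Il10ra is called in 3 comparisons, Il23a in both LPS comparisons, and Il10rb, Il27 and Ebi3 in none.

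Il23a, which encodes the p19 subunit that sets IL-23 apart from IL-12, was well above background only after LPS, and then at low signal. Its log2 signal was 4.01, 4.01, 2.45 and 2.46 with DMSO and 3.25, 3.98, 3.60 and 2.94 with cordycepin, none of them well above background. With LPS+DMSO it was 6.02, 5.23, 5.59 and 5.63, well above background in all but replicate 2, and with LPS+cordycepin 6.22, 5.58, 6.02 and 6.73, well above background in replicates 3 and 4. The LPS-treated arrays without that mark all lay on the first slide, where a smaller share of spots passed it. All 8 LPS-treated arrays were above all 8 unstimulated arrays, and the LPS+DMSO and LPS+cordycepin arrays overlapped.

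Since Il23a was dim in 2 conditions, its difference on the processed signal was first taken with a stand-in for the dim condition. This was the lowest signal well above background on each array, or the Il23a signal where that was higher. The means were over all 4 arrays, of which 3 with LPS+DMSO and 2 with LPS+cordycepin were well above background. LPS+DMSO was then 1.46-fold higher than DMSO, and LPS+cordycepin 2.04-fold higher than cordycepin. The stand-in is no ceiling for signals without the mark. In LPS+cordycepin replicate 2 Il23a itself lacked the mark at 5.58, above the lowest signal with it on that array, 5.57. A fit over all 34779 genes without the filter gave 2.38 on the log2 scale for LPS+DMSO against DMSO (SE 0.39, limma adjusted p = 0.00189) and 2.70 for LPS+cordycepin against cordycepin (adjusted p = 0.00107), with 0.903% and 0.762% of all genes called higher. The fitted sizes depend on values not well above background. With normexp background correction in place of the processed signal they were 0.46 (adjusted p = 0.99) and 0.87 (adjusted p = 0.569). Neither was called, and both lay under the folds taken with the stand-in, which are therefore no lower bounds. Without replicate 3 the difference of LPS+DMSO from DMSO on the processed signal was 2.13 (adjusted p = 0.0635), not called. The 2 LPS differences were 1.61 and 2.28 on slide 1 and 3.15 and 3.11 on slide 2. These differences are taken against values not well above background, which with DMSO were lower on slide 2, so they give no order of the response by slide.

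The raw signal of the Il23a spot was also set against the negative control spots of the same array, of which there were 284 to 304. In unstimulated cells it lay between -0.15 and 2.80 SD of those spots from their mean. With LPS+DMSO it lay 6.61, 1.76, 8.45 and 12.2 SD above it, and with LPS+cordycepin 4.32, 2.52, 10.5 and 16.3 SD. Replicate 2 of both LPS conditions therefore lay within the range of the unstimulated arrays, and the other 6 LPS-treated arrays above it. Il23a was not lower on average when cordycepin preceded LPS. The difference between LPS+cordycepin and LPS+DMSO was 0.52 on the log2 scale (95% CI -0.32 to 1.36, adjusted p = 0.789), above 0 in 4 of 4 replicates and not called. In 3 of these 8 arrays Il23a was not well above background, so the interval bounds no change of the transcript. The 4 of 4 holds for the processed signal, since the distance from the negative controls in replicate 1 was smaller with LPS+cordycepin than with LPS+DMSO.

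Il10 itself, and Il12b, whose p40 product both IL-12 and IL-23 need, were each measured by 10 spots per array rather than 1. Over the 16 arrays the log2 signal of Il10 ran from 2.37 to 4.10 and that of Il12b from 2.37 to 4.37. On every array fewer of their spots were marked well above background than were not. The raw Il10 signal was 0.98 to 1.89 SD of the negative control spots above their mean with DMSO, 0.88 to 1.40 with cordycepin, 0.79 to 2.65 with LPS+DMSO and 0.49 to 1.86 with LPS+cordycepin. That of Il12b was 1.19 to 2.31, 1.23 to 2.31, 1.29 to 2.10 and 0.84 to 1.72 SD in the same order. The SD is that of single control spots, while each of these values is a mean of 8 to 10 spots and so varies less. These distances are therefore not comparable with those of Il23a and Il12a, which had 1 spot per array. Both genes lay above the control mean on all 16 arrays, and whether that reflects transcript was not tested. The 4 conditions overlapped for both genes, and their processed values followed the slide more than the condition, with replicates 1 and 2 above replicates 3 and 4 in every condition.

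Il12a, the p35 subunit shared by IL-12 and IL-35, ran from 2.20 to 5.32 and was likewise well above background nowhere. The highest value, in LPS+cordycepin replicate 2, stood apart from the rest of that condition but was still under the lowest signal well above background on its array, 5.57. Its raw signal lay -2.88 to 3.41 SD of the negative control spots from their mean with DMSO, 0.77 to 2.75 with cordycepin, -0.61 to 2.27 with LPS+DMSO and -2.58 to 4.78 with LPS+cordycepin, so the highest array, again LPS+cordycepin replicate 2, was as far from them as some LPS-treated Il23a arrays. The 4 conditions overlapped, and no fold is given for these 3 genes, since their values were not well above background.

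The genes most like Il10ra over the 16 arrays, by Pearson correlation of log2 signal among 11649 other genes with a symbol, were Cd83 (r = 0.970), Filip1l (r = 0.962) and Ticam1 (r = 0.957). Cd83 is a surface marker of activated antigen-presenting cells, and Ticam1 encodes TRIF, an adaptor of the LPS receptor. The points share slides, days and conditions, so these values describe the pattern only. Cd83 differed by 3.03 with LPS and -1.83 with cordycepin in LPS on the log2 scale, Filip1l by 1.53 and -1.14, and Ticam1 by 1.49 and -1.13.

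Around the members, the other receptor chains of these cytokines were mostly dim, and 3 of 10 could be tested (Il12rb1, Il6st and Il20rb). Il12rb1, the chain that binds p40 in the receptors for both IL-12 and IL-23, had a mean log2 signal of 10.01 with DMSO, 8.21 with cordycepin, 9.05 with LPS+DMSO and 7.80 with LPS+cordycepin. It fell with cordycepin whether or not LPS was present. The fall was 1.25 on the log2 scale in LPS (SE 0.12, limma adjusted p = 1.46e-06) and the difference between cordycepin and DMSO was -1.80 (adjusted p = 5.37e-08), both called, while that with LPS alone, -0.96, was just under 2-fold. Il20rb, a receptor chain for IL-20 relatives, was called higher with cordycepin than with DMSO, by 1.22 (adjusted p = 0.000659). Il23r and Il27ra, the partner chains for IL-23 and IL-27, were well above background on no array. Il6st (gp130), the signalling chain for IL-27, differed by -0.63 in LPS (adjusted p = 0.000479), at under 2-fold. The 3 chains had a median log2 change of -0.06 with LPS and -0.63 with cordycepin in LPS, beside -0.04 and 0.03 over all genes tested. None of the 5 other ligands of the IL-10 family (Il19, Il20, Il22, Il24 and Iltifb) passed the filter.

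Of the Janus kinases and STATs, 4 of 6 were tested (Jak1, Jak2, Tyk2 and Stat3), and limma called 0 in each of the 4 pairwise comparisons, with 0 at an unadjusted p under 0.05 and 0 called by the univariate test. Stat3, which carries the IL-10 signal, had a log2 change of 0.31 with LPS (adjusted p = 0.243) and 0.05 with cordycepin in LPS (adjusted p = 0.899). Of the genes that IL-10 is known to raise in macrophages 9 were tested and 4 were called higher with LPS, against 2.09% of all genes, namely the STAT3-induced signalling inhibitor Socs3 (2.94), the nuclear IkappaB protein Bcl3 (1.36), the NF-kappaB inhibitor Tnip3 (1.72) and the IL-1 receptor antagonist Il1rn (1.64). With cordycepin in LPS 1 of 9 was called lower, against 1.52% of all genes, namely Tnip3, which fell by 1.43. Tnip3 was also called in the interaction (-1.33, adjusted p = 0.0373), but its dimmer second probe changed by -0.51 with cordycepin in LPS (adjusted p = 0.618). The list's median was 0.71 with LPS and -0.57 with cordycepin in LPS. Since the list was chosen with earlier results of these data known, the shares beside its counts are a description and no test.

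Of 18 transcription factors known to act on the promoters of the members, 17 were tested and 5 were called higher with LPS, against 2.09% of all genes. They were Nfkbiz (5.21 on the log2 scale), an NF-kappaB cofactor, the AP-1 proteins Fos (4.67), Junb (4.66) and Jun (1.79), and Atf3 (3.13), a repressor induced by LPS. With cordycepin in LPS 4 of 17 were called lower, against 1.52% of all genes, with Atf3 falling by 2.01, Cebpd by 1.51, Creb1 by 1.18 and Nfkbiz by 1.05. Fos and Jun, at -0.19 and -0.28, were not called. The 2 probes of Creb1 disagreed, since the dimmer one was higher with cordycepin in LPS, by 3.58. The median change of the 17 was 0.64 with LPS and -0.41 with cordycepin in LPS. Of the 17, 13 were well above background on all arrays, so some of these sizes may rest in part on values not well above it. This list too was chosen with earlier results known, so its counts beside the shares of all genes are a description and no test. Of the 7 kinases and phosphatase upstream of Il10, 1 was called with LPS, the MAP kinase phosphatase Dusp1 (4.11), and limma and the univariate test called 0 with cordycepin in LPS (2 had an unadjusted p under 0.05), where Dusp1 differed by -0.97 (adjusted p = 0.00382), just under 2-fold.

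**Figure D4:**
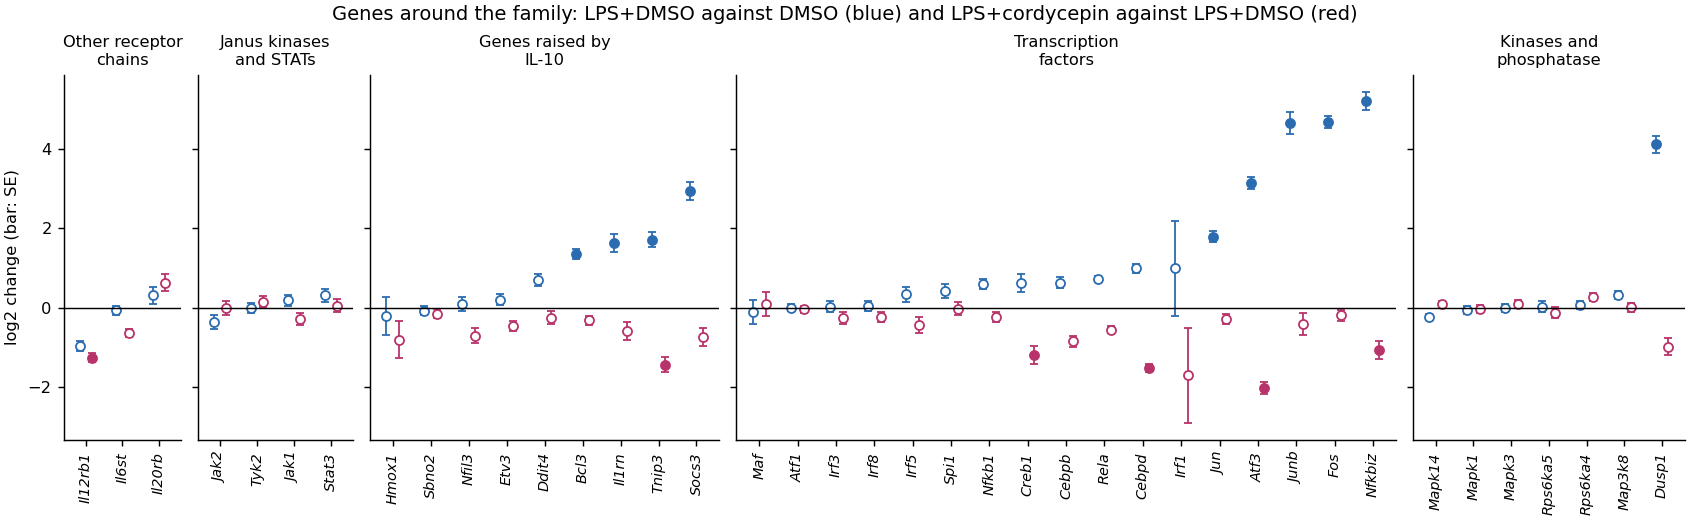
Log2 change with its SE for the tested genes of 5 lists around the family, in LPS+DMSO against DMSO (blue) and LPS+cordycepin against LPS+DMSO (red), filled where called. Nfkbiz, Fos, Junb and Dusp1 rise most with LPS, and Atf3, Cebpd, Tnip3 and Il12rb1 fall with cordycepin.

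Promoter sequence from RefSeq (GRCm38.p6, 250 bases before to 50 after the start) was matched for 3 members, Il12a, Il12b and Ebi3. The kappaB motif was found at 3 positions, of which an adjacent pair overlapped, in the Ebi3 window and in 1 of 2 Il12a windows, and in neither the other Il12a window nor that of Il12b, while 26.8% of all promoter windows held it. The AP-1 motif (TGANTCA, 7.81% of windows), the CRE core (TGACGTCA, 1.79%) and the TATA box (TATAAA, 13.6%) were in none of these 4 windows on either strand.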

How the data were processed

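RNA was extracted with the Nucleospin kit per the labels and hybridised, with Cy3 label, to 16 Agilent mouse arrays. The scanner files deposited by the authors hold intensity per spot (raw mean, local background, and a processed signal from which the software had subtracted background and spatial trend) with flags for spots well above background, saturated or outlying. Agilent Feature Extraction 10.10.1.1 and limma are named in the submitters' processing notes, while the file headers give version 10.7.3.1. The authors also deposited a table of log2 values, whose normalization is not given in the sources used here.

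The log2 processed intensity was averaged over spots of a probe without outliers and set relative to the 75th percentile of the 18064 probes that passed the background mark on every array. Probes that passed it on each of the 4 arrays in 1 or more conditions were kept (21597), and the brightest probe stood for a gene. The 4 condition means were fitted with limma 3.58.1 in R 4.3.3, and p was adjusted by Benjamini-Hochberg over 15877 genes. Files were read with pandas 2.3.3 and numpy 2.4.6 in Python 3.11.15, and plots were drawn with matplotlib 3.10.9. On simulated data for LPS+DMSO against DMSO with 200 genes changed among 15877, 98.5% were recovered with 5 false calls. That share holds only for the change sizes and spread of the simulation, and it does not measure how often changes near 2-fold are found.

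Replicate numbers mark the collection day, as the design text of the series states. Deviations from the group means correlated by a mean of 0.20 for arrays of 1 number (-0.06 to 0.44, 20 of 24 pairs over 0.1), 0.18 for other numbers on the same slide and -0.19 across slides.

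The 8 members were named whatever their values. For a called member the 3 most correlated genes were named, and for each list its counts and the genes called in LPS+DMSO against DMSO or by cordycepin in LPS. The members and the gene lists were chosen with earlier results of these data known. Alternatives were other scalings, background corrections, filters, probe rules, blocks, thresholds and tests, the value table, single slides and leaving out arrays. Il23a without the filter was fitted in 10 further ways chosen after seeing the data. The number of arrays limits the precision.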

Additional observations from a re-analysis of the deposited data

Results flagged for a closer look

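Ebi3 in LPS+DMSO replicate 4 had a log2 signal of 13.22, apart from the other 3 arrays of that condition, of which the next was at 12.81. Of 32 groups of 4 arrays examined (8 genes in 4 conditions) this was the only one in which a single array stood so far from the rest, and chance alone gives about 1 in 20.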

How the results depend on the processing

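Results of the 4 tested members were recomputed under 39 alternatives (37 for the interaction), and those of Il23a without the filter under 10. Il10ra kept its direction under all of them in all 5 comparisons. With the replicate block the members called numbered 1, 1, 0, 1 and 0, as without it (in the order LPS in DMSO, cordycepin in LPS, cordycepin without LPS, LPS in cordycepin, and the interaction), and this pairing changed no other call. Without the filter on dim probes 2 members were called, Il10ra and Il23a, in both LPS comparisons. Il10ra in LPS+cordycepin against LPS+DMSO was under 2-fold, leaving 0 members called, with normexp background correction (-0.98, adjusted p = 2.63e-05) and on the second slide alone (-0.98). In LPS+cordycepin against cordycepin 0 were called with normexp (0.94), on the second slide alone (0.95), with scaling to the 7 spiked-in control probes (0.77, adjusted p = 0.562) and without cordycepin replicate 1 (0.97), so that leaving out arrays gave 0 to 1 members and 0.97 to 1.18 for Il10ra. Spiked-in scaling moved the median of all genes in that comparison from -0.05 to -0.36, and to -0.14 with LPS, -0.12 with cordycepin in LPS and -0.21 in the interaction.

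Some changes that were not called turned sign. In LPS+cordycepin against LPS+DMSO, Il10rb was -0.036 with spiked-in scaling and -0.0055 with the percentile over all probes, Il27 was -0.17 with quantile normalization, -0.15 with spiked-in scaling, -0.12 with the percentile over all probes, -0.10 in the authors' value table and -0.026 on the first slide, and Ebi3 was -0.10 with spiked-in scaling and -0.074 with the percentile over all probes. In LPS+cordycepin against cordycepin, spiked-in scaling gave -0.31 for Il10rb, -0.23 for Il27 and -0.077 for Ebi3, and the second slide gave -0.023 for Il10rb. In cordycepin against DMSO, Il27 was -0.095 with quantile normalization, -0.023 with the percentile over all probes, -0.054 with normexp and -0.081 in the value table, and Il23a without the filter was -0.091 with normexp. The Il27 interaction was 0.12 with normexp and 0.032 on the second slide. Leaving out arrays gave -0.082 to 0.087 for Il27 and -0.033 to 0.15 for Ebi3 in LPS+cordycepin against LPS+DMSO, -0.044 to 0.067 for Il10rb in LPS+cordycepin against cordycepin, -0.029 to 0.13 for Il27 and -0.11 to 0.53 for Il23a in cordycepin against DMSO, and -0.13 to 0.049 for the Il27 interaction. The causes were not tested. Signal over background limited Il10, Il12a, Il12b and Il23a.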
